A study of Mus musculus with 4 samples.

Results

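The sugar and monocarboxylate transporters measured here were the members of the families Slc2a, Slc5a and Slc16a, chosen by gene symbol alone. All non-control probes of the array whose gene name belongs to one of these families were taken, which gave 60 probes of 38 genes among the 41174 non-control probes of the array. They comprised 19 probes of 11 Slc2a genes, 19 probes of 13 Slc5a genes and 22 probes of 14 Slc16a genes. RNA came from a pair of stable clones of EPH-4, a non-malignant mouse mammary epithelial cell line. EV-50 carried the H1-2 empty vector and is labelled as having normal levels of the glucocorticoid receptor (GR), while shGR-19 carried an shRNA vector against GR and is labelled as depleted of it. Both lines also carried a puromycin resistance marker and were kept in serum-free medium with 2 µg/ml puromycin without added glucocorticoid. Each line was measured on 2 one-colour Agilent arrays from 300 ng RNA apiece. Each line is 1 clone, so differences between clones lie outside the spread of its arrays, and the sources used here do not state whether the duplicates were separate RNA preparations. The comparison asks which of these transporters differ in expression when GR is depleted in the absence of its ligand.

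The families move small nutrients across membranes by different means. Slc2a genes encode the GLUT proteins, which let hexoses pass down their gradient. Most Slc5a genes encode sodium-coupled carriers, among them the SGLT glucose transporters and carriers of inositol, iodide, vitamins and short monocarboxylates. Slc16a genes encode the MCT family, whose best known members carry lactate and pyruvate together with a proton, while others carry aromatic amino acids. In the mammary gland, glucose taken up by GLUT1 (Slc2a1) feeds both glycolysis and the synthesis of lactose, and glucocorticoids are among the hormones that support lactation.

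The authors deposited the intensity of every spot from the scanner and a table of log2 values made from the same samples. The deposited files differ in what they show, and this bears on every result below. The scanner output of 1 array is called a scan here and is named by the label it was deposited under, with replicate 1 given before replicate 2 wherever a pair of values is printed. The scans labelled as replicate 1 of EV-50 and of shGR-19 were alike: over the 21178 probes that were well above background on each of the 4 arrays, the standard deviation of their log2 difference was 0.23, against 0.62 between the scans labelled EV-50 and 0.71 between those labelled shGR-19. The scans labelled replicate 2 differed between the lines with a standard deviation of 0.51. In the value table the duplicates lay closest, with standard deviations of 0.20 and 0.21, against 0.53 and 0.54 between the lines. Across the same probes, the table's difference between the lines had a correlation of 0.91 with that of the scans labelled replicate 2 and of 0.04 with that of the scans labelled replicate 1. Results are therefore given from each source.

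Nr3c1, which encodes GR and is the target of the shRNA, checks the labels. A scanner value is the log2 signal of a probe relative to the 75th percentile of its array. The brightest Nr3c1 probe read 1.74 in the scan labelled EV-50 replicate 1, 1.85 in that labelled EV-50 replicate 2, 1.39 in that labelled shGR-19 replicate 1 and -0.11 in that labelled shGR-19 replicate 2. The low value stood in the last of these. In the table, where a value is relative to the probe's own median over the arrays, Nr3c1 was lower in shGR-19 by a log2 difference of -1.94 (SE 0.05, limma adjusted p = 0.0021), and its 3 other probes gave -1.41, -1.63 and -1.72.

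The labelled cell type was visible in the markers, with 10 of 11 epithelial markers well above background on all 4 arrays and Krt19 on 2 of them. The defining markers of immune cells (Ptprc, Itgam, Emr1), fat cells (Adipoq) and endothelium (Pecam1, Cdh5) were well above background on no array. Of 7 fibroblast or mesenchymal markers, 6 were kept and 5 of these were called higher in shGR-19 in the value table. The 5 were Col1a1 with a log2 difference of 5.57, Col1a2 with 3.27, Pdgfrb with 2.03, Vim with 1.82 and Pdgfra with 1.16. Col1a1 and Pdgfra had passed the filter only through the scans labelled shGR-19, the line in which the table has them high. The summed scanner signal of these 7 markers was 1121 and 3855 in the scans labelled EV-50 and 1103 and 28887 in those labelled shGR-19. Krt14, a basal keratin, was called lower with a log2 difference of -1.13, and the other kept epithelial markers were not called. Krt19 did not pass the filter and was not tested, and its table values differed by -2.76. The called markers differed between the lines in the value table, as did the called transporters below. In the scans labelled replicate 1 the summed signal of the mesenchymal markers was close between the lines, at 1121 and 1103. The part of these markers in the transporter differences was not tested.

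A smaller share of the transporter probes than of all probes gave a measurable signal. Of the 60 probes, 19 (31.7%) were well above background on all 4 arrays, against 51.4% of all probes. A further 7 probes were so on 3 arrays, 1 on 2 arrays, 8 on 1 array and 25 on none. For the tests, a probe was kept if 1 line or both had it well above background on each of their arrays. This left 26 transporter probes (43.3%) of 19 genes, against 59.4% of all probes. A probe below background gives only an upper limit of its gene's RNA, and in these bulk samples fewer cells with a transcript and less of it per cell cannot be told apart.

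Among the Slc2a family, the kept genes were Slc2a1, Slc2a2, Slc2a4, Slc2a6, Slc2a8 and Slc2a9. Slc2a3 and Slc2a5, which encode the high-affinity glucose transporter of neurons and a fructose transporter, had 1 probe each that was well above background on 1 array. Slc2a10, Slc2a12 and Slc2a13 were so on no array. Of the Slc5a family, Slc5a3, Slc5a4b, Slc5a6, Slc5a8 and Slc5a10 were kept. Slc5a2, the renal SGLT2, and Slc5a9 were above background on 1 array, and Slc5a5, the iodide transporter of thyroid and lactating breast, on 2. Slc5a1, Slc5a4a, Slc5a7, Slc5a11 and Slc5a12 were so on none, which included the intestinal glucose carrier SGLT1 (Slc5a1) and the choline carrier of cholinergic neurons (Slc5a7). Of the Slc16a family, the kept genes included Slc16a1, Slc16a3, Slc16a6, Slc16a8, Slc16a10, Slc16a11 and Slc16a12. Slc16a4 and Slc16a9 were above background on 1 array, and Slc16a5, Slc16a7, Slc16a13 and Slc16a14 on none. Slc16a7 encodes MCT2, a high-affinity pyruvate and lactate carrier.

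**Figure D1:**
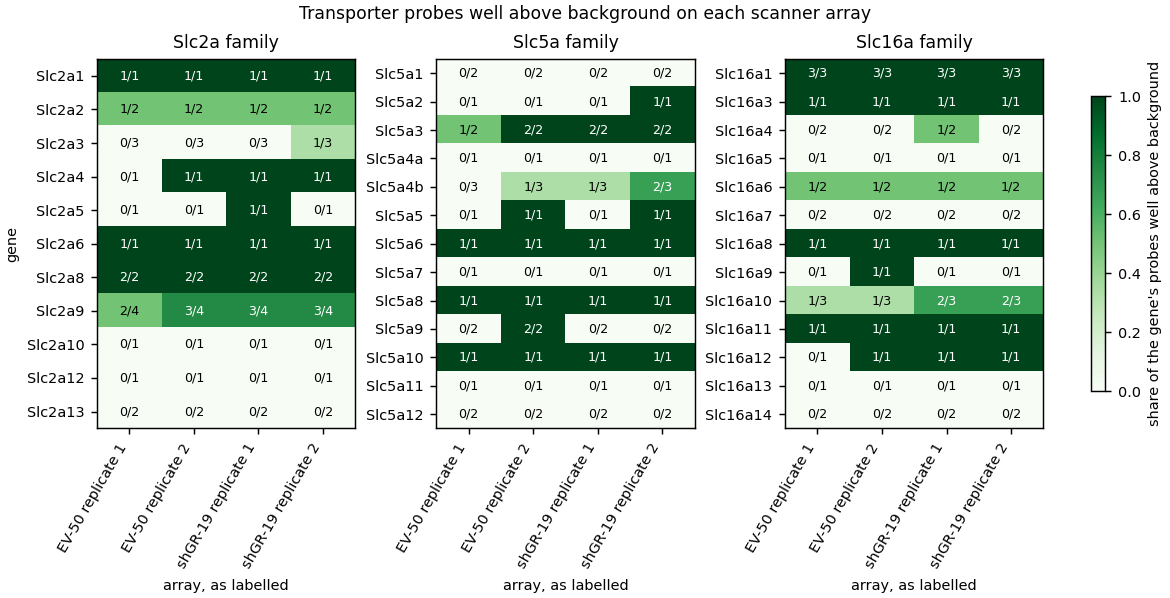
Number of probes of each transporter gene that were well above background (numerator) of those on the array (denominator), for each of the 4 scanner arrays by label, with 1 panel per family and colour giving the share. Genes such as Slc2a1, Slc5a6 and Slc16a1 are dark on all 4 arrays, while both Slc5a9 probes are marked only in the scan labelled EV-50 replicate 2, and 12 genes are blank throughout.

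Of the 26 kept transporter probes, none was called between the lines in the scanner files, where a call needed more than a 2-fold difference and a limma adjusted p below 0.01. None of the 24453 kept probes of the array was called there either (0%). At an unadjusted p below 0.05 the count was 0 of the 26 transporter probes and 208 of all kept probes (0.851%), and a plain equal-variance test also called no transporter probe. In the value table, 2 transporter probes were called higher in shGR-19, of Slc16a10 and Slc16a3, and 0 were called lower. The Slc16a10 probe had passed the filter only through the scans labelled shGR-19, the line in which the table has it high, and the count was 1 where all 4 arrays had to be well above background. Of all kept probes, 459 (1.88%) were called higher and 585 (2.39%) lower. Without the fold limit, the transporter probes called were again 2 of 26, against 11.6% of all kept probes, and 14 of 26 had an unadjusted p below 0.05, against 48.4%. The median log2 difference in the table over the kept transporter probes was 0.11, against 0.01 over all kept probes. It ranged from -0.78 to 2.80, with 19 of 26 probes within 0.5 of no difference. The 2 calls lay in the MCT family.

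**Figure D2:**
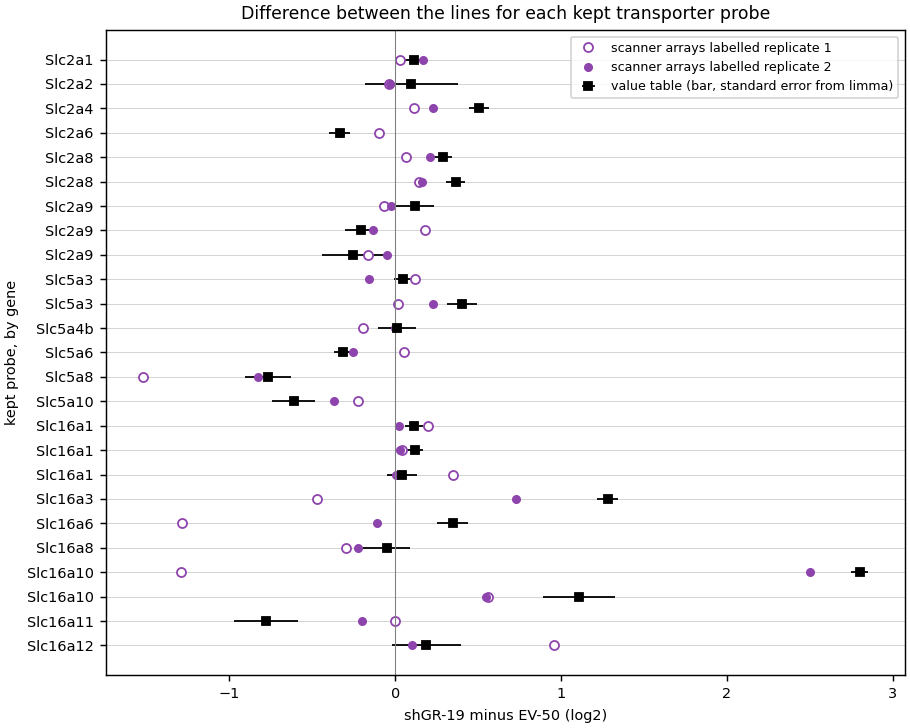
Log2 difference between the lines, shGR-19 minus EV-50, for the kept probes of the named transporter genes. Squares give the value table with the standard error from limma, and open and filled circles give the scans labelled replicate 1 and replicate 2 with no error. In the value table Slc16a10 (2.80) and Slc16a3 (1.28) lie highest, and for the brighter Slc16a10 probe and Slc16a3 the open circles lie below 0 and the filled circles above it.

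Slc16a10 encodes TAT1, a carrier of aromatic amino acids, and had the largest difference among the kept transporter probes in the value table. It is read by 3 probes on chromosome 10, all on the minus strand of mm9. The first 30 of 60 bases of each are shown because the probes differ in what they report. The first lies at chr10:39756480-39756539, the second at chr10:39796577-39796636 and the last at chr10:39795726-39795785.
Slc16a10, first probe: gccaacctaaaccttgagtctgttaaatga
Slc16a10, second probe: agcagtgtgaagctctttaacacgctgcgg
Slc16a10, last probe: tgtgagatatttctggaaaacacgagaatt

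In the value table the first Slc16a10 probe read -1.38 and -1.44 in EV-50 and 1.41 and 1.38 in shGR-19. The groups did not overlap, with means of -1.41 ± 0.04 and 1.39 ± 0.02 (SD, n = 2 each), a log2 difference of 2.80 (SE 0.05, limma adjusted p = 0.0017) and thus a 6.97-fold higher level in shGR-19. On the scanner arrays it read -2.99 and -6.40 in those labelled EV-50 replicates 1 and 2, and -4.29 and -3.89 in those labelled shGR-19. The scan labelled EV-50 replicate 1 was the highest of the 4 and that labelled EV-50 replicate 2 was the only one not well above background. The difference between the lines was therefore -1.29 in the scans labelled replicate 1, while in those labelled replicate 2 shGR-19 read 5.67-fold higher. That fold uses the EV-50 reading that was not well above background, so it is approximate. The second probe gave log2 differences of the same sign, 0.56 and 0.55 in the scans labelled replicates 1 and 2. In the table its difference was 1.11 (SE 0.22, limma adjusted p = 0.033), which did not pass the threshold. This probe was not well above background in the scan labelled EV-50 replicate 1, so the 0.56 rests on an undetected value. It too had passed the filter only through the scans labelled shGR-19. The last probe was well above background on no array.

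Slc16a3 encodes MCT4, the carrier through which glycolytic cells release lactate. Its probe lies at chr11:120820023-120820082 on the plus strand of mm9 and begins as follows.
Slc16a3: ctgggcagtggtctgttcaccctgagtccc

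Slc16a3 was well above background on each of the 4 arrays. The value table had it at -0.60 and -0.69 in EV-50 and 0.68 and 0.60 in shGR-19, with no overlap between the lines. Its means were -0.64 ± 0.07 and 0.64 ± 0.06 (SD, n = 2 each), and the log2 difference of 1.28 (SE 0.07, limma adjusted p = 0.0039) is a 2.43-fold higher level in shGR-19. The scanner signal was -3.17 and -3.16 in the scans labelled EV-50 and -3.65 and -2.43 in those labelled shGR-19. The scans labelled shGR-19 lay on either side of both EV-50 arrays, giving log2 differences of -0.47 between the scans labelled replicate 1 and 0.73 between those labelled replicate 2. Neither the Slc16a10 nor the Slc16a3 call was kept in the table with any 1 of its 4 columns left out, where no probe of the whole array was called. With all probes of the array in the fit neither passed the threshold. The limma adjusted p was 0.0103 for Slc16a10, a near miss, and 0.0164 for Slc16a3.

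The start regions of both called genes are shown as RefSeq gives them for GRCm38.p6, as 300 bases around the start, with motif matches in capitals. The motifs searched on both strands were AGAACA, the core hexamer of a GR response element, and ACGTG, the core of a hypoxia response element, and no overlap between them was found in the regions shown. The Slc16a10 region is chr10:40142205-40142504 (minus strand) and the Slc16a3 region is chr11:120948817-120949116 (plus strand).
Slc16a10 start region: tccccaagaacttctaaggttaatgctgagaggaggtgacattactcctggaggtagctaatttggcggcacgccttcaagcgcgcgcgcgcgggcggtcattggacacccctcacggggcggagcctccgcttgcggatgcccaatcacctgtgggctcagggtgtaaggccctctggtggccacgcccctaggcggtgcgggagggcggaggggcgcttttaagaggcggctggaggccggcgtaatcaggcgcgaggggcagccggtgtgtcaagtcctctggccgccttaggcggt
Slc16a3 start region: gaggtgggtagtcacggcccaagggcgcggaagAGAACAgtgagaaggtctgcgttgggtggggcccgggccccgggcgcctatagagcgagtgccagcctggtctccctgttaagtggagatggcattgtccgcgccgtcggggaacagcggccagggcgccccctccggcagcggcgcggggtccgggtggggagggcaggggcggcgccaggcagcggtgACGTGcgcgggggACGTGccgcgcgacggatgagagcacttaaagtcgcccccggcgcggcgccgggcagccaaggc

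The Slc16a3 region held 1 match to AGAACA and 2 matches to ACGTG, and the Slc16a10 region held none of either. Of 38 transporter genes, 28 were found in the table of start regions, with 30 regions. AGAACA was in 5 of these 30 regions and in 18.97% of all 32851 regions of the same length, and ACGTG was in 6 of 30 and in 19.6% of all. The shares for the transporters were thus near those of all regions, and a match is only a stretch of letters.

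Slc5a9 encodes SGLT4, a sodium-coupled carrier of mannose and fructose, and Slc2a3 encodes GLUT3. The study names both, and Slc16a10, among its changed genes, so their values are no independent evidence. For Slc5a9 the study also reported lower expression in shGR-19 by quantitative reverse transcription PCR, a measurement not analysed here. Neither gene passed the filter, because each was well above background on only 1 array. Slc5a9 is read by a pair of probes on chromosome 4, at chr4:111548065-111548124 and chr4:111548879-111548938 on the minus strand of mm9, and the Slc2a3 probe with signal lies at chr6:122678075-122678134, also on the minus strand. Their first 30 bases show that the Slc5a9 probes are different sequences of the same gene.
Slc5a9, first probe: aattttgtgtaccctgtaaagtctgcaaac
Slc5a9, second probe: accatgtcaatgattgctcattctagctga
Slc2a3: gtgcttacacatttcagaccctttaggcaa

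The first Slc5a9 probe read -6.75 in the scan labelled EV-50 replicate 1, -3.90 in that labelled EV-50 replicate 2, -6.43 in that labelled shGR-19 replicate 1 and -7.49 in that labelled shGR-19 replicate 2. The second read -6.70, -4.46, -7.54 and -8.18 in this order of scans. Both probes were well above background only in the scan labelled EV-50 replicate 2. For the scans labelled replicate 2, shGR-19 was set to the lowest signal well above background on its array, -6.77. The level in EV-50 was then 7.31-fold higher by the first probe and 4.98-fold higher by the second. These folds are not strict lower bounds, because a probe can read above that limit without being well above background. Slc16a9 did so in the scan labelled shGR-19 replicate 2, at -6.05. The scans labelled replicate 1 gave no such fold, as neither measured Slc5a9.

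For the first Slc5a9 probe, the value table had 1.94 and 1.84 in EV-50 and -1.84 and -1.95 in shGR-19, and for the second 1.67 and 1.57 against -1.57 and -1.69. The table therefore has both EV-50 columns high, whereas the scanner file labelled EV-50 replicate 1 has Slc5a9 not well above background. With all probes of the array in the fit, a choice made after the data were seen, the table's log2 differences were -3.78 (SE 0.08, limma adjusted p = 0.0103) and -3.25 (SE 0.08, limma adjusted p = 0.0104). Both just missed the threshold of 0.01. With all probes, 0.0364% of all probes were called higher and 0.068% lower. On the scanner arrays in the same fit no difference was called. Without EV-50 replicate 1 the second probe passed at a log2 difference of -3.40, but this sets a lone EV-50 scan against scans that were both below background, and no call is drawn from it.

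The Slc2a3 probe was well above background only in the scan labelled shGR-19 replicate 2, the opposite line from Slc5a9. It read -6.05 and -5.89 in the scans labelled EV-50 and -5.77 and -3.23 in those labelled shGR-19. The reading in shGR-19 was 6.31-fold higher in the scans labelled replicate 2, and those labelled replicate 1 gave no such fold. The 6.31 uses an EV-50 reading that was not well above background, so it is approximate. The value table had it at -1.03 and -1.01 in EV-50 and 1.19 and 1.01 in shGR-19. With all probes in the fit the log2 difference was 2.12 (SE 0.09, limma adjusted p = 0.0135). The other 2 Slc2a3 probes were well above background on no array, and 1 of them had a lone high value in the table, of 2.00 in EV-50 replicate 2.

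**Figure D3:**
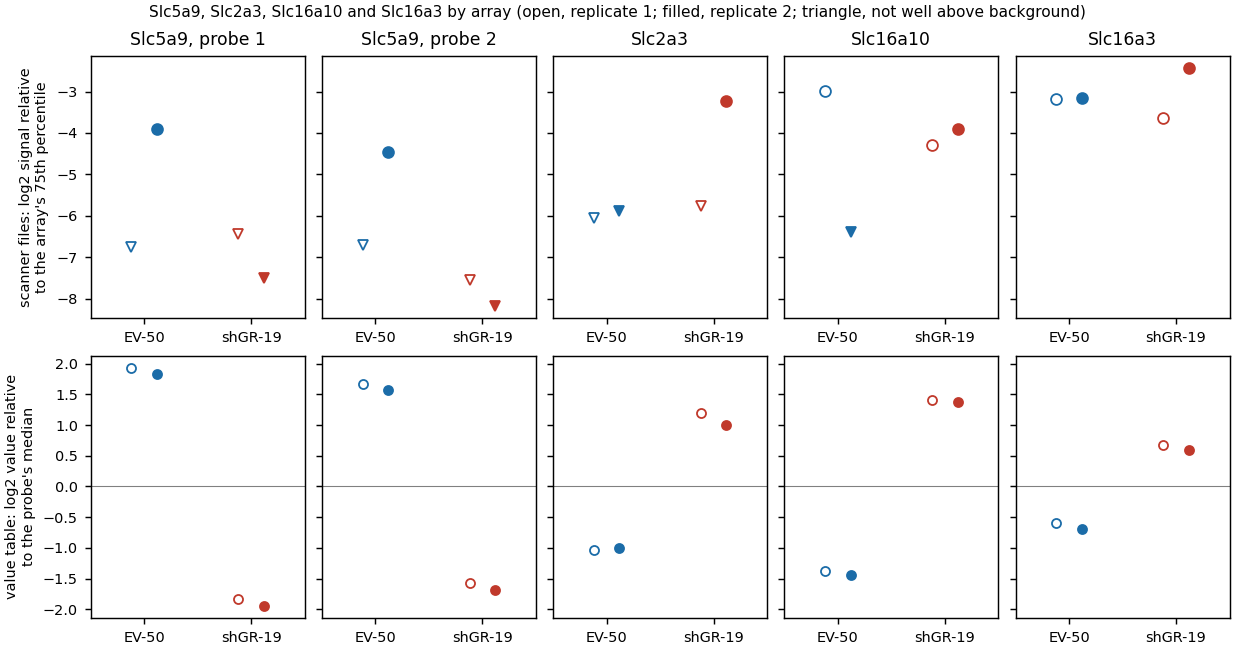
Values of both Slc5a9 probes, the Slc2a3 probe, the first Slc16a10 probe and Slc16a3 on each array: the scanner signal relative to the array's 75th percentile (top, log2) and the value table relative to the probe's median (bottom, log2). Open symbols are replicate 1, filled symbols replicate 2 and triangles probes not well above background. In the table the lines separate for each probe, while on the scanner arrays Slc5a9 stands out only in the scan labelled EV-50 replicate 2 and Slc2a3 only in that labelled shGR-19 replicate 2.

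Slc2a1, the main glucose transporter of proliferating and lactating mammary epithelium, was called between the lines in neither source. Its scanner signal was 2.69 and 1.72 in the scans labelled EV-50 and 2.72 and 1.89 in those labelled shGR-19. The scans labelled replicate 1 were high and those labelled replicate 2 low in both lines, by log2 differences of -0.97 and -0.82. Between the lines the table gave a log2 difference of 0.11 (SE 0.05, limma adjusted p = 0.18).

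No other GLUT gene was called. Slc2a8, an intracellular hexose transporter, read -0.02 and -0.41 in the scans labelled EV-50 and 0.13 and -0.24 in those labelled shGR-19. Its lines overlapped on the scanner arrays, and the table had a log2 difference of 0.37 (limma adjusted p = 0.021) with its second probe at 0.29. Slc2a4, the insulin-responsive GLUT4 of muscle and fat, was printed as 10 spots per array and read -5.75 and -4.06 in the scans labelled EV-50 and -5.64 and -3.84 in those labelled shGR-19. None of its 10 spots was well above background in the scan labelled EV-50 replicate 1, while 8 were in that labelled shGR-19 replicate 1 and all 10 on each of the others. The standard deviation between its spots was 0.53 in the scan labelled EV-50 replicate 1 and from 0.11 to 0.12 on the other 3 arrays, below its difference of 1.69 between the scans labelled EV-50 and of 1.80 between those labelled shGR-19. In the table the log2 difference of Slc2a4 between the lines was 0.51 (limma adjusted p = 0.013). Slc2a9, a urate transporter, had 3 kept probes whose table differences ran from -0.25 to 0.12 and so differed in sign. Slc2a10, which encodes GLUT10, read from -7.64 to -5.98 on the scanner arrays without being well above background on any.

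Of the sodium-coupled carriers, Slc5a8, which takes up short-chain fatty acids and lactate, was the one kept gene that was lower in shGR-19 in the scans of both replicate numbers by a log2 difference of more than 0.5. It read -2.56 and -3.65 in the scans labelled EV-50 and -4.09 and -4.48 in those labelled shGR-19. The lines did not overlap, but the EV-50 scans lay 1.08 apart, and the log2 difference of -1.18 did not pass the test (limma adjusted p = 1.0). Its unadjusted p was the smallest among the kept transporter probes in the scanner files. In the table the log2 difference was -0.77 (SE 0.14, limma adjusted p = 0.028).

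Slc5a6, the carrier of biotin and pantothenate, read 1.80 and 1.01 in the scans labelled EV-50 and 1.86 and 0.76 in those labelled shGR-19. As with Slc2a1, the scans labelled replicate 1 were the high ones in both lines, and the table's difference between the lines was -0.31 (limma adjusted p = 0.026). Slc5a3, the inositol carrier, read -1.96 and -1.86 in the scans labelled EV-50 and -1.95 and -1.63 in those labelled shGR-19, and its table difference was 0.40 (limma adjusted p = 0.043) for the brighter probe and 0.04 for the other. Slc5a5 read -5.20 and -4.61 in the scans labelled EV-50 and -5.60 and -5.02 in those labelled shGR-19, and was well above background only in the scans labelled replicate 2. The brighter Slc5a1 probe read from -8.03 to -5.40 and was well above background on none. Slc5a10, which encodes the mannose and fructose carrier SGLT5, had a table difference of -0.61 (limma adjusted p = 0.037).

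No other monocarboxylate carrier was called. Slc16a1, the widely expressed lactate carrier MCT1, read 3.03 and 2.61 in the scans labelled EV-50 and 3.07 and 2.64 in those labelled shGR-19, and the lines differed by 0.04 and 0.03 in the scans labelled replicates 1 and 2. Its 3 probes gave table differences from 0.04 to 0.12, none past the threshold. Slc16a11 had the lowest table difference among kept transporter probes, -0.78 (SE 0.19, limma adjusted p = 0.052), with differences of -0.00280 and -0.20 in the scans labelled replicates 1 and 2. The brighter Slc16a7 probe read from -8.00 to -6.61 and was well above background on no array.

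**Figure D4:**
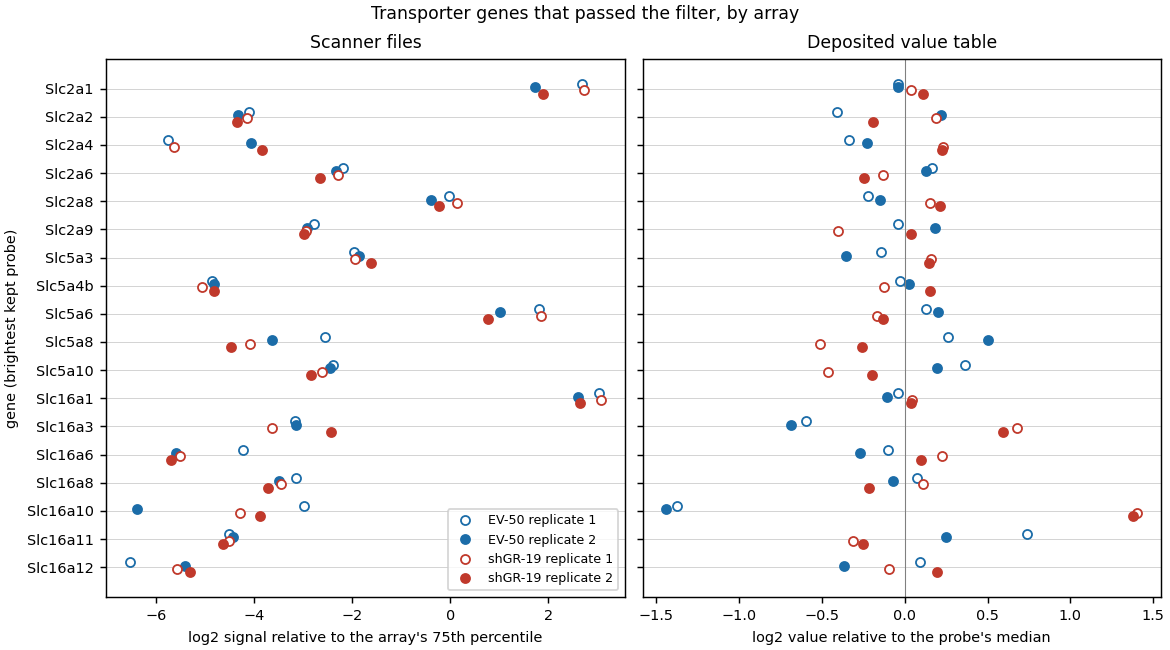
Values of the named transporter genes that passed the filter, by the brightest kept probe, on each of the 4 arrays. The scanner signal is on the left (log2, relative to the array's 75th percentile; levels of different probes cannot be compared) and the value table on the right (log2, relative to the probe's median). On the left, Slc2a1 and Slc2a4 split by replicate number rather than by line. On the right, Slc16a10 and Slc16a3 split furthest by line.

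The kept transporter probes spread more widely between scans of 1 label than between the lines, as all kept probes did. For the transporter probes the standard deviation of the log2 differences was 0.90 between the EV-50 scans and 0.61 between the shGR-19 scans. Between the lines it was 0.54 and 0.57 in replicates 1 and 2. Over all kept probes these values were 0.69, 0.73, 0.38 and 0.57 in the same order. The 0.90 includes -3.40 for the first Slc16a10 probe, which was not well above background in the scan labelled EV-50 replicate 2. In the EV-50 scans, replicate 2 exceeded replicate 1 by over 2-fold for 2 probes and fell short of it by over 2-fold for 3, against 6.46% and 4.57% of all kept probes. Between the scans labelled shGR-19 the counts were 2 higher and 1 lower, against 5.66% and 6.28%. Across the lines, the scans labelled replicate 1 had 0 transporter probes more than 2-fold higher and 3 lower in shGR-19, against 2.43% and 1.12% of all kept probes, and those labelled replicate 2 had 1 higher and 0 lower, against 2.33% and 3.23%. The 3 lower in the scans labelled replicate 1 were Slc5a8, Slc16a6 and the first Slc16a10 probe, and the 1 higher in those labelled replicate 2 was the same Slc16a10 probe. These counts rest on single arrays and have no test.

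The enzymes and regulators that handle sugar after its uptake were read from a list of 43 genes, of which 41 were kept. None was called in the scanner files by limma, and none had an unadjusted p below 0.05 there. The value table called 0 of them higher and 1 lower, where 1.88% and 2.39% of all kept probes were called. The median log2 difference was -0.14, against 0.01 over all kept probes. The gene called was Aldoc, a glycolytic aldolase, with a log2 difference of -1.77 (SE 0.05, limma adjusted p = 0.0022), and its other probe gave -1.59. Aldoc read 2.13 and 1.46 in the scans labelled EV-50 and 2.18 and -0.36 in those labelled shGR-19, so that the scan labelled shGR-19 replicate 2 was the low one.

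Without the fold limit, 2 genes of the list passed as higher in the table and 6 as lower, where 11.6% of all kept probes passed in either direction. The higher ones were Pfkfb3 with a log2 difference of 0.94 and Pfkfb2 with 0.80, both of which make the activator of phosphofructokinase. The next largest increase was that of Pdk3, an inhibitor of pyruvate dehydrogenase, with 0.46 (limma adjusted p = 0.018). After Aldoc, the largest decreases were those of Ldha, the lactate dehydrogenase of glycolytic cells, with -0.94 and of Txnip, an inhibitor of glucose uptake, with -0.90. Hk2, Eno3 and Emb also passed as lower, with -0.65, -0.50 and -0.90. Emb encodes embigin, a partner protein of MCT carriers, and its other probe was called lower at -1.13. Bsg, the partner of MCT1 and MCT4, had a table difference of -0.02 (limma adjusted p = 0.87).

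Glycolysis genes split the scanner arrays by replicate number, as Slc2a1 did. Of 20 kept genes of sugar entry and glycolysis, 17 were lower in the scan labelled EV-50 replicate 2 than on replicate 1, with a median log2 difference of -0.53. Between the scans labelled shGR-19, 18 of 20 were lower on replicate 2, with a median of -0.91. The medians over all kept probes were -0.04 and -0.07. Pgk1, a glycolytic kinase, read 7.29 and 6.18 in the scans labelled EV-50 and 7.37 and 6.19 in those labelled shGR-19. Pdk1, which holds pyruvate back from the mitochondria, read -0.23 and -2.77 in the scans labelled EV-50 and -0.08 and -2.70 in those labelled shGR-19. The scans labelled replicate 1 were thus the high ones for both genes in both lines. Neither was called between the lines in the table, with log2 differences of 0.14 (limma adjusted p = 0.099) and -0.11 (limma adjusted p = 0.44). These 2 genes were named after their values were seen.

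**Figure D5:**
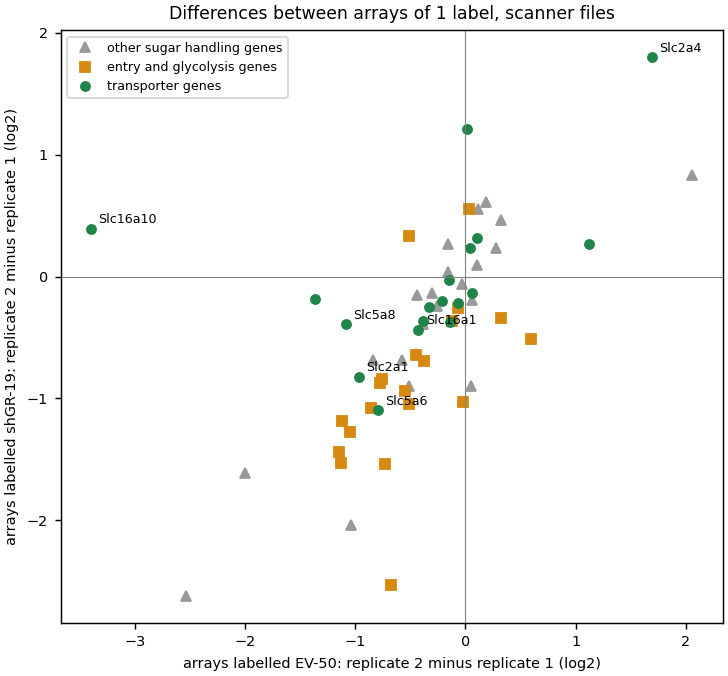
Log2 difference between the scanner arrays of 1 label, replicate 2 minus replicate 1, for EV-50 (horizontal) and shGR-19 (vertical), for the kept transporter genes and the 41 kept sugar handling genes, 1 point per gene with no error. Most entry and glycolysis genes lie at the lower left with Slc2a1 and Slc5a6, Slc2a4 lies at the upper right, and Slc16a10 lies far to the left at -3.40.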

How the data were processed

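Total RNA of EV-50 and shGR-19 cells was labelled with Cy3 and hybridized to 4 one-colour Agilent Whole Mouse Genome arrays. All were on 1 slide and read in 1 scan, which leaves no batch of slide or scan to fit. The labels name no batch of culture, RNA preparation or labelling, so none of these could be fitted. The authors deposited scanner intensities, background-subtracted by Agilent Feature Extraction 10.5.1.1 and not scaled between arrays, and GeneSpring log2 values in a table, centred on each probe's median. The direction and scale of that table were checked against the scanner files. Its differences between the lines matched the scans labelled replicate 2 (correlation 0.91) but not those labelled replicate 1 (0.04). Each array had 43379 spots, of which 23290 to 27358 were well above background and 0 were saturated; the number of arrays limits the precision.

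Control spots and outlier spots (74 to 139 per array) were left out, log2 of the processed intensity was set relative to the array's 75th percentile, and spots of 1 probe were averaged. A probe was kept where each array of 1 line or more had at least 1 of its spots well above background. Each source was fitted over all kept probes with limma 3.58.1 (R 4.3.3) and Benjamini-Hochberg adjustment over all of them. Calls needed an adjusted p below 0.01 and over 2-fold change, and steps were tested on simulated data. An exact permutation of 2 against 2 arrays cannot go below 0.333, so none was used. The p-values measure only the spread between these arrays, which may be technical. For a fold within 1 replicate number, a scan in which the probe was not well above background was set to a limit. The limit was the higher of that array's lowest signal well above background and the probe's own signal. Such a fold is approximate and not a strict lower bound, because probes can exceed the limit without being well above background. The brightest kept probe stood for a gene. Named with values were the members listed by the study, members with a textbook role in epithelium and members called or over 2-fold in the table, and, of the sugar handling genes, those called and the largest 3 in each direction. Members and lists were chosen with earlier results of these data known. Probe positions are those of mm9 in the file headers, with no annotation of exons or untranslated regions used here, and start regions were taken from RefSeq tables of GRCm38.p6. Over 1770 pairs of transporter probes, those of different genes shared at most 30 of 60 aligned bases.

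Alternatives changed the background (normexp, offset 50), the scaling (quantile, or a percentile over detected probes), the filter (no filter, or signal on all 4 arrays), the prior (trend and robust, statmod 1.5.0), the threshold (no adjustment, adjusted p below 0.05, no fold limit) and the test (plain equal-variance, adjusted or not), fitted the replicate number as a block, and left out each array. Measurements of the study other than the arrays were not analysed here. Of the transporter genes, 1 enters the counts but is not reported here by name.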

Additional observations from a re-analysis of the deposited data

How the results depend on the processing

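The count of 2 transporter probes called higher in the value table fell to 0 with all probes kept, with a plain equal-variance test after adjustment, with the replicate block and with each array left out (0 to 0), and was 1 where all 4 arrays had to be well above background; it stayed within 1.5 times under the other settings, and changing 1 setting at a time called no transporter probe lower in the table, and none in either direction in the scanner files. When 1 array is left out, its line's remaining array is assumed to vary like the other line, and no probe of the array was then called in the table. The log2 difference of Slc16a10 ran from 2.77 to 2.83 and its adjusted p from 2.53e-23 to 0.037, and that of Slc16a3 from 1.23 to 1.33 with an adjusted p from 3.40e-15 to 0.038. Of the sugar handling genes called lower in the table (1), 0 were left with all probes kept, with the adjusted plain test, with the block and with each array left out (0 to 0), and 6 lower and 2 higher passed without the fold limit.

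In the scanner files, several differences between the lines changed sign. With normexp correction Slc16a10 was at -0.044, Slc2a4 at -0.0031 and Slc16a1 at -0.0076. With each array left out the log2 difference ran from -1.09 to 2.31 for Slc16a10, -0.38 to 0.58 for Slc2a1, -0.73 to 1.07 for Slc2a4, -0.037 to 0.35 for Slc2a8, -0.037 to 0.28 for Slc5a3, -0.65 to 0.45 for Slc5a6, -0.18 to 0.25 for Slc16a1 and -0.48 to 0.73 for Slc16a3. Slc5a8 stayed negative, from -1.72 to -0.52. With all probes in the fit and a further setting changed, Slc5a9 (lower) and Slc2a3 (higher) passed in the table with an intensity trend, with no adjustment, with an adjusted p below 0.05 and with the unadjusted plain test. The cause of these changes was not tested.

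With the replicate number as a block, 0 transporter probes and 0 sugar handling genes were called in the value table and 0 in the scanner files. Slc16a10 and Slc16a3 then had an adjusted p of 0.029 each. Deviations of arrays with the same number correlated at 0.65 in the scanner files and 0.11 in the table. There are only 2 numbers and the labels name no shared batch, so what else arrays of the same number share is not known. Over all probes, calls in the table fell from 459 higher and 585 lower to 15 and 28 with all probes kept, to 5 and 11 with the adjusted plain test, and to 0 and 0 with the block or any array left out; without the fold limit they were 1354 and 1476.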
